A study of Homo sapiens with 4 samples.

Results

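The genes described are subunits of the receptors for glutamate, GABA and glycine, measured in SH-SY5Y cells after knockdown of LSD1. They were picked by symbol, in a set chosen with earlier results of these data known. The rule took every gene whose whole symbol follows the naming pattern for subunits of these receptors. It covered AMPA (GRIA), kainate (GRIK), NMDA (GRIN), delta (GRID) and metabotropic (GRM) glutamate receptors. It also covered GABA-A (GABR), GABA-B (GABBR) and glycine (GLR) receptors. Of 19775 genes with a probe set that named them alone, 45 met this rule, through 109 probe sets. SH-SY5Y is a human neuroblastoma line, a cultured clonal subline with features of nerve cells. The siLSD1 group was transfected with a small interfering RNA (siRNA) that targets LSD1, the histone lysine demethylase encoded by KDM1A, and the siControl group a control siRNA (its sequence was not given in the sources used here). Each group consisted of 2 Affymetrix arrays, described by the submitters as independent transfections of this one line. The time between transfection and harvest was not given in the sources used here.

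Glutamate opens cation channels built from AMPA, kainate and NMDA subunits and also acts on metabotropic receptors, which signal through G proteins. GABA and glycine open chloride channels, and GABA-B receptors are G protein-coupled. Many genes of neuronal receptors carry a site for the repressor REST, named RE1, and the CoREST complex that REST recruits contains LSD1.

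The RE1 motif joins a left part, TTCAGCACC, to a right part, GGACAG, usually with a short spacer. Both strands of the RefSeq promoter windows for the build GRCh38.p14, from 250 bases before to 50 after each annotated start, were searched for these letters. A window was matched for 37 of the 45 genes, with 56 windows in all. Of the genes bright enough to be tested, GRID1 and GRIN2C had none. The left part occurred in 2 of the 56 windows, those of GRIA2 and GRM2, and in 0.376% of all 35116 windows. The right part by itself was common, in 20.5% of all windows and in 17 of the 56 (14 of the 37 genes), and overlaps the joined motif by construction. The joined form TTCAGCACCNNGGACAG occurred in 1 receptor gene, GRIA2, and in 0.0142% of all windows. GRM2 had both parts in the same order with a spacer of 7 bases, a spacing read from this gene, and 5 of all windows held that form. Both sites are shown because these genes are also among those bright enough to be tested, with the motif in capitals and in the orientation of the motif. The GRIA2 site lies at chr4:157220386-157220414 on the minus strand, opposite to the gene, and the GRM2 site at chr3:51706861-51706890 on the plus strand.
GRIA2: cggcctTTCAGCACCgaGGACAGcgcctc
GRM2: gggaTTCAGCACCacgaggcGGACAGctcc
The motif of GRIA2 spans bases -227 to -211 before the last of its annotated starts, and that of GRM2 bases -203 to -182. The 250 bases before the GRM2 start, chr3:51706818-51707067 on the plus strand, show where its site lies in a window rich in G and C, again with the motif in capitals.
GRM2 promoter: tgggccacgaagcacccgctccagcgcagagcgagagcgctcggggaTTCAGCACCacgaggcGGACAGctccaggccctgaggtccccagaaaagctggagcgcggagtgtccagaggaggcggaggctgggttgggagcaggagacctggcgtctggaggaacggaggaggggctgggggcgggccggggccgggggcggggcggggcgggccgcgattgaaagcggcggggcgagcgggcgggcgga
These matches describe letters in the genome and say nothing about binding in these cells.

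All levels are log2 signals after quantile normalization, and all fold changes are siLSD1 over siControl. KDM1A, the target of the siRNA, had signals of 8.40 and 8.54 on the siLSD1 arrays, against 9.79 and 9.79 on the siControl arrays, or 40.04% of its control level (log2 fold change -1.32, limma adjusted p = 0.389). No gene of the 11865 tested passed an adjusted p of 0.05 in limma, and 409 had an unadjusted p under 0.05. Without siControl replicate 2, 83 genes passed (KDM1A among them and 0 of the receptor genes), and without siLSD1 replicate 1, 1 gene did. Of 14 measured noradrenergic neuroblastoma markers 13 lay above the brightness filter, the exception being the tyrosine hydroxylase gene TH. Of the Schwann and glial markers 0 of 5 did, and of the blood markers 1 of 5. The glial marker MBP, at a mean of 4.112, lay just under the filter of 4.12. Of 8 fibroblast markers 7 lay above the filter, and their list mean was 5.74 and 5.97 in siLSD1 and 5.74 and 5.64 in siControl. The array siControl replicate 1 stood apart, with a mean correlation of 0.958 with the others, against 0.972 to 0.973 for the other 3 arrays. On siLSD1 replicate 2 the 3′ signal of beta-actin exceeded the 5′ signal by 1.16 (log2, deposited values), against 0.54 to 0.71 on the other 3 arrays. The part of these differences between arrays in the values below was not tested.

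Only 12 of the 45 receptor genes were bright enough to be tested, and none of them passed the test for a difference between siLSD1 and siControl cells. The filter was a mean signal of 4.12 over the 4 arrays, the 40th percentile of all genes. It kept 2 of 4 AMPA, 2 of 5 kainate, 2 of 7 NMDA, 1 of 1 delta, 3 of 7 metabotropic glutamate, 0 of 15 GABA-A, 1 of 2 GABA-B and 1 of 4 glycine receptor genes. GRM2, at a mean of 4.19, was the dimmest gene kept, and GRIA3, at 4.002, the brightest one left out. In limma 0 of the 12 passed an adjusted p of 0.05, the background being 0% of all genes tested. At an unadjusted p under 0.05 limma also gave 0 of the 12, where 3.45% of all genes tested reached it. Their unadjusted p lay between 0.215 and 0.929, and the adjusted p was 0.9996 throughout. With 2 arrays a group, the exact permutation test (two-sided) has a smallest possible p of 0.333. In bulk RNA, fewer cells with a transcript and less RNA per cell cannot be told apart.

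**Figure D1:**
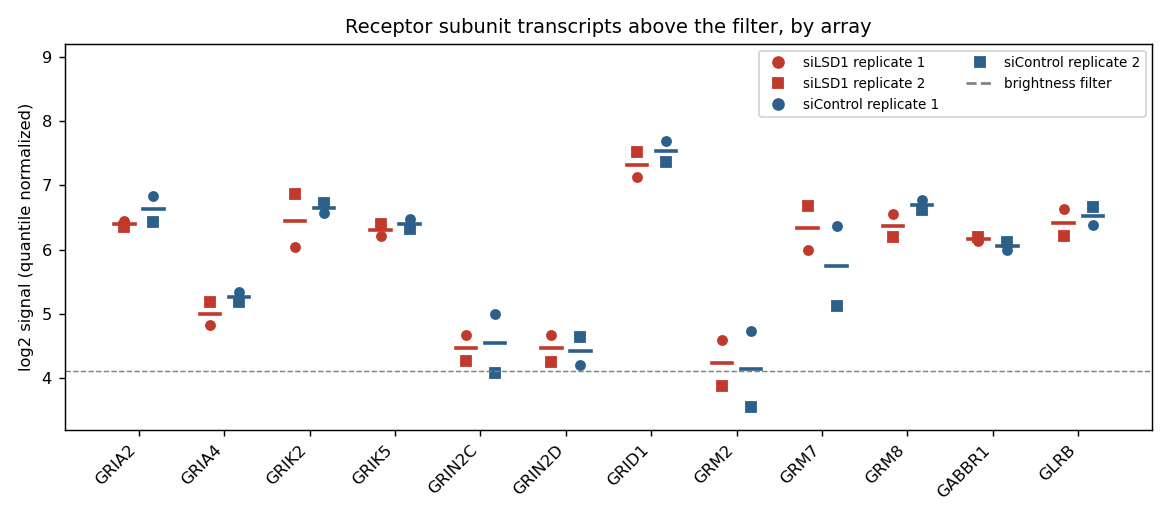
Log2 signal (vertical axis, quantile normalized) of the 12 receptor genes above the filter on each array, siLSD1 in red left of siControl in blue, circles for replicate 1, squares for replicate 2 and short lines for group means. The groups overlap in 9 of the 12 genes, beside 8102 of all 11865 genes tested. Signals of different genes come from different probes and cannot be ranked.

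Among the AMPA receptor genes, which encode the channels of fast excitatory transmission, neither tested gene passed the test, and the probe sets of each differed in direction. GRIA2, the subunit that limits calcium entry through the channel and the gene with the joined RE1 letters, had signals of 6.45 and 6.35 on the siLSD1 arrays, against 6.84 and 6.43 on the siControl arrays. The groups overlapped, because the lower control value lay between the siLSD1 values. The means of 6.40 ± 0.067 in siLSD1 and 6.63 ± 0.29 in siControl (SD, n = 2) differed by -0.23 on the log2 scale (95% interval -0.85 to 0.39). A second probe set of GRIA2 above the filter had the opposite sign, at 0.12. GRIA4, another AMPA subunit, had signals of 4.83 and 5.18 in siLSD1 cells, against 5.35 and 5.19 in siControl cells. The siLSD1 arrays were both lower than either siControl array, by a narrow margin, and the log2 fold change was -0.26 (95% interval -1.04 to 0.51). Its brightest probe set is of a kind whose probes can also match other transcripts, and its other probe set above the filter was higher on both siLSD1 arrays, at 0.18, so the direction for GRIA4 is uncertain.

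The kainate receptor genes GRIK2 and GRIK5 had slightly lower means in siLSD1 cells in every probe set above the filter. GRIK2, a subunit that can form the channel by itself, had signals of 6.04 and 6.87 on the siLSD1 arrays, against 6.57 and 6.72 on the siControl arrays. The siLSD1 arrays held both the lowest and the highest value, and the log2 fold change was -0.196 (95% interval -0.94 to 0.55). Its other probe sets gave -0.23 and -0.13. GRIK5, a subunit with high affinity for kainate that works only together with other subunits, was at 6.21 and 6.40 in siLSD1 cells, against 6.48 and 6.32 in siControl cells, with overlapping groups and a log2 fold change of -0.095. Its interval ran from -0.70 to 0.51, and its other probe set gave -0.31. The brightest GRIK5 probe set is of the same kind as that of GRIA4.

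NMDA receptors need magnesium block to be lifted and glycine or serine as a co-agonist, and of their 7 genes the regulatory subunits GRIN2C and GRIN2D were above the filter. GRIN2C had signals of 4.68 and 4.27 in siLSD1 cells, against 5.01 and 4.09 in siControl cells, so that the control arrays enclosed both siLSD1 values (log2 fold change -0.071, 95% interval -1.10 to 0.96). A second probe set was lower on both siLSD1 arrays, at -0.34. GRIN2D was at 4.68 and 4.26 in siLSD1, against 4.21 and 4.65 in siControl, with almost the same range in either group and a log2 fold change of 0.037 (95% interval -0.90 to 0.97). GRID1, which encodes a delta receptor that works as a synaptic organizer, was at 7.13 and 7.52 in siLSD1 cells, against 7.70 and 7.37 in siControl cells. The groups overlapped, and the log2 fold change of -0.21 had the narrowest interval of the 12 genes, from -0.79 to 0.37. Its second probe set gave 1.20, but there siControl replicate 2 was at 2.22 and the other 3 arrays between 4.76 and 4.95, so this value rests on 1 array.

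Of the metabotropic receptor genes, GRM7 and GRM8 had the smallest unadjusted p of the 12, in opposite directions. Both encode presynaptic receptors that lower transmitter release through inhibitory G proteins. GRM7 had signals of 6.003 and 6.68 on the siLSD1 arrays, against 6.37 and 5.13 on the siControl arrays. The groups overlapped, with siControl replicate 2 far below the rest, and the 1.51-fold higher mean (log2 fold change 0.59, 95% interval -0.42 to 1.61, limma unadjusted p = 0.215) depended on that array. The log2 fold change was -0.029 without siControl replicate 2 and 1.22 without siControl replicate 1, each with a lone siControl array left. A second probe set of GRM7 was at 5.40 and 5.07 in siLSD1, against 4.87 and 4.86 in siControl. There both siLSD1 arrays were above both siControl arrays, with a log2 fold change of 0.37.

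GRM8 had a lower siLSD1 mean in all 3 of its probe sets above the filter, without passing the test. Its brightest probe set had signals of 6.56 and 6.19 on the siLSD1 arrays, against 6.78 and 6.62 on the siControl arrays, and the groups did not overlap. The means were 6.38 ± 0.26 in siLSD1 and 6.70 ± 0.11 in siControl (SD, n = 2) (log2 fold change -0.33, 95% interval -0.94 to 0.29). The other probe sets gave -0.37 and -0.18, with overlapping groups. GRM2, an autoreceptor of glutamate terminals and the gene with the widely spaced RE1 parts, was at 4.60 and 3.88 in siLSD1 cells, against 4.73 and 3.56 in siControl cells. The control arrays enclosed the siLSD1 arrays, and the log2 fold change of 0.096 had the widest interval of the 12, from -1.11 to 1.30. Of the 10 tested genes with a promoter window, GRIA2 and GRM2 had the left RE1 part. The intervals of both included 0, but so did those of all 12 genes, so this does not set them apart from the rest. The search took exact letters within the promoter windows only, so a gene without a match cannot be taken to lack an RE1. Whether genes with an RE1 respond to the knockdown was not tested.

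For the inhibitory transmitters, GABBR1 and GLRB were the genes above the filter. GABBR1, the subunit of the GABA-B receptor that binds GABA, had signals of 6.14 and 6.20 in siLSD1 cells, against 5.997 and 6.13 in siControl cells. Both siLSD1 arrays lay above both siControl arrays, but the difference was 1.08-fold (log2 fold change 0.11, 95% interval -0.51 to 0.72), and its second probe set gave -0.12. GLRB, the subunit that anchors glycine receptors to gephyrin at the synapse, was at 6.64 and 6.21 in siLSD1, against 6.38 and 6.66 in siControl. The groups overlapped over most of their range. The log2 fold change was -0.097 (95% interval -0.74 to 0.55), and the second probe set gave -0.17.

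**Figure D2:**
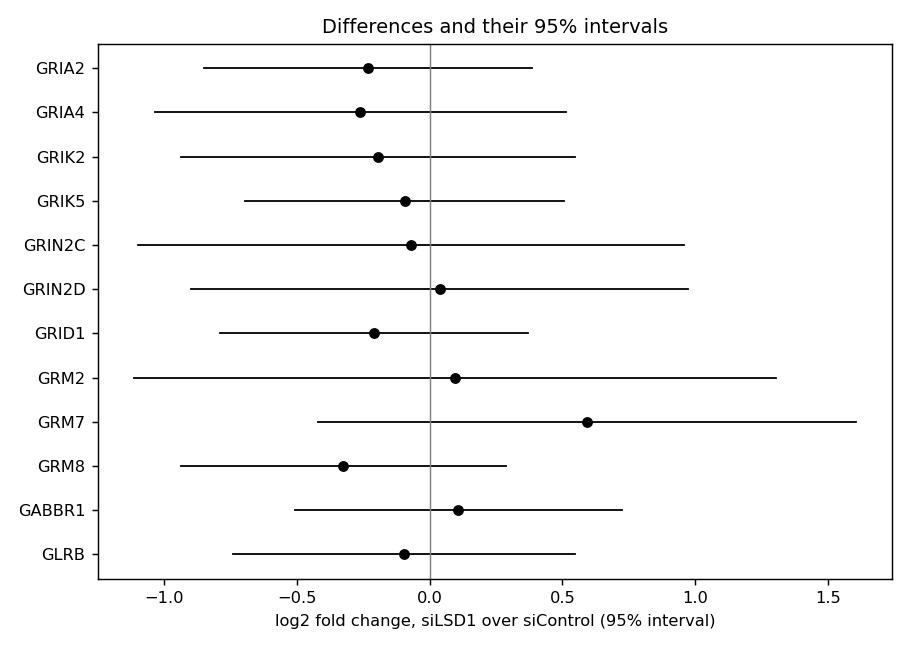
Log2 fold change of the 12 receptor genes, siLSD1 over siControl (horizontal axis), as points with the 95% interval from limma as lines. Every interval includes 0, and their reach to either side runs from 0.58 for GRID1 to 1.21 for GRM2.

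Across the 12 genes the siLSD1 mean exceeded the siControl mean in 4 and lay under it in 8. The median log2 fold change was -0.096, beside 0.0068 over all genes tested, of which 48.7% were lower. Both siLSD1 arrays lay above both siControl arrays in 1 of the 12 (16.6% of all genes tested) and below them in 2 of the 12 (15.1% of all genes tested). The split moved with the scaling. Under the deposited scaling 2 were higher and 10 lower, and under median centring 9 were higher and 3 lower. Median centring also shifted the median of all genes tested by 0.17, and relative to that median 2 genes were higher and 10 lower. The array siControl replicate 1 gave the highest value in 7 of the 12, or 58.3%, where it did so in 39.2% of all genes tested. The median deviation of the 12 from their own means was -0.011 and -0.061 on the siLSD1 arrays and 0.23 and -0.011 on the siControl arrays, so siControl replicate 1 was the high one. The median log2 fold change was -0.037 without that array and -0.26 without siControl replicate 2.

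**Figure D3:**
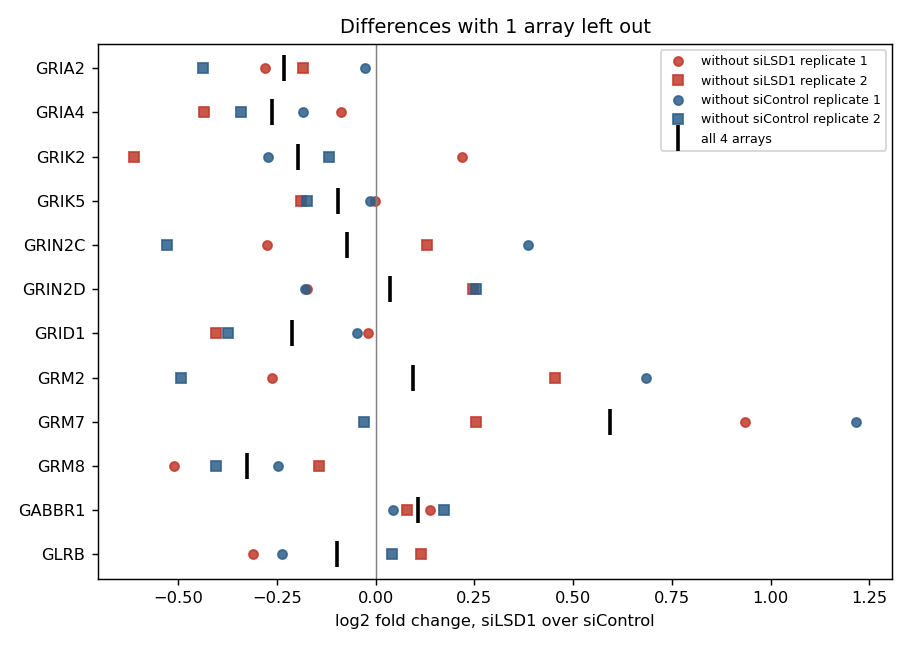
Log2 fold change of the 12 receptor genes, siLSD1 over siControl (horizontal axis), with all 4 arrays as black bars and with 1 array left out as symbols, red for siLSD1 and blue for siControl arrays. The sign turns for 6 of the 12 genes, and GRM7 ranges from -0.029 to 1.22.

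The precision differed between genes. The 95% interval reached a median of 0.69 to either side over the 12 genes, or 1.62-fold, against 0.58 over all genes tested. The intervals of GRIA2, GRIK2, GRIK5, GRIN2D, GRID1, GRM8, GABBR1 and GLRB left out a 2-fold change in either direction. That of GRM7 included a 2-fold higher level, those of GRIA4 and GRIN2C a 2-fold lower one and that of GRM2 both. These intervals hold for the brightest probe set of each gene only. The second GRID1 probe set, at 1.20, exceeded 2-fold, a value that rests on 1 array. Of the 24 receptor probe sets above the filter, 12 were further probe sets of 10 of these genes. Of those 12, 8 had the same sign as the brightest probe set and 4 the opposite sign, which were those of GRIA2, GRIA4, GRID1 and GABBR1.

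**Figure D4:**
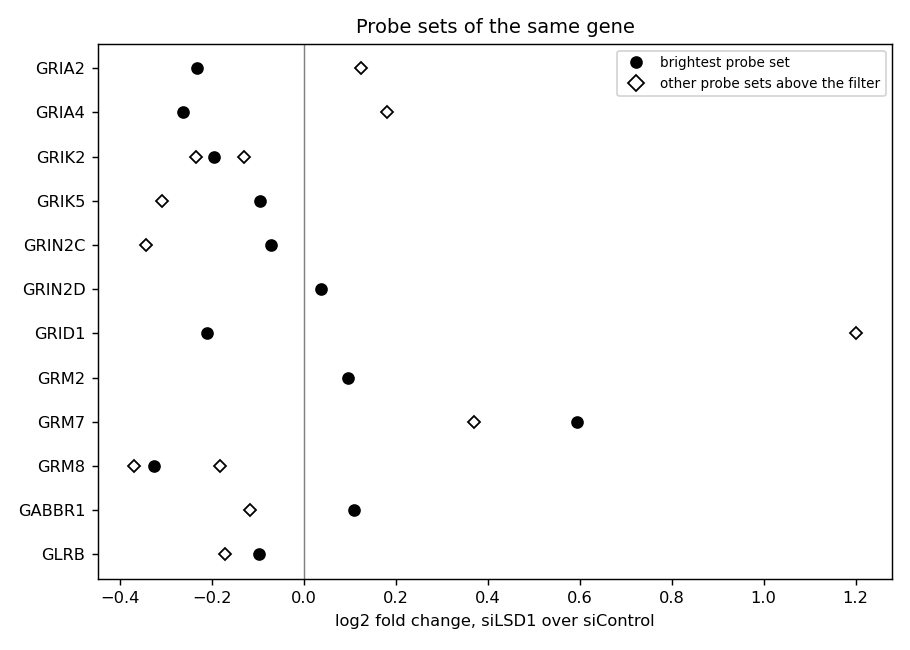
Log2 fold change, siLSD1 over siControl (horizontal axis), of every probe set above the filter for the 12 receptor genes, filled for the brightest probe set and open for the others. The probe sets of GRIK2, GRIK5, GRIN2C, GRM7, GRM8 and GLRB lie on the same side of 0, and the far point of GRID1 at 1.20 rests on 1 siControl array.

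The other 33 receptor genes lay below the filter and were not tested. All 15 GABA-A receptor genes, the subunits of the main inhibitory channel, were among them, with signals between -2.14 and 4.803 and log2 fold changes between -1.10 and 1.50. The 5 NMDA receptor genes below the filter had log2 fold changes between -1.56 and 0.40, the 4 metabotropic ones between -0.598 and 0.46, the 3 kainate ones between -0.71 and 1.28, the 2 AMPA ones between -0.50 and 0.63 and the 3 glycine receptor ones between -1.54 and 0.53. A low signal does not show that a transcript was absent. Replicates of one group differed by a median of 0.91 in siLSD1 and 1.24 in siControl in these 33 genes, against 0.395 and 0.30 in the 12 brighter ones. The 16 higher and 17 lower genes had a median log2 fold change of -0.012, beside -0.0070 over all 7910 genes below the filter.

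Differences of at least 2-fold with groups that did not overlap occurred in 4 of the 33, all lower in siLSD1 cells. Among all genes below the filter 10.5% were lower and 9.81% higher by this rule, against 4 lower and 0 higher of the 33. GRIN2A, a regulatory NMDA receptor subunit, had signals of 2.44 and 1.43 in siLSD1, against 4.37 and 2.61 in siControl, a log2 fold change of -1.56. Its control arrays lay further apart than the groups did at their nearest values, and the difference was -0.68 without siControl replicate 1. Its other probe sets gave 0.24 and -1.86. GLRA1, the glycine receptor subunit mutated in startle disease, was at 0.061 and 2.62 in siLSD1, against 2.82 and 2.95 in siControl. The difference of -1.54 came mostly from siLSD1 replicate 1, and it was -0.26 without that array. GLRA3, another glycine receptor subunit, was at 1.21 and 0.63 in siLSD1, against 1.59 and 2.44 in siControl (log2 fold change -1.10, and -0.67 without siControl replicate 2), but a probe set of nearly the same mean signal gave 0.40 and a dimmer one -2.16. GABBR2, the GABA-B subunit that couples to the G protein, was at 2.22 and 2.72 in siLSD1, against 3.27 and 3.75 in siControl (log2 fold change -1.03). This probe set is of the same kind as the brightest one of GRIA4, whose probes can also match other transcripts. The other 3 probe sets of GABBR2 gave -1.15, -0.37 and 2.34, and the mean of all its probe sets -0.053. GLRA1 had no other probe set. Without the requirement on size, both siLSD1 arrays lay above both siControl arrays in 4 of the 33 genes (17.5% of all genes below the filter) and below them in 7 of the 33 (16.5% of all genes below the filter).

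**Figure D5:**
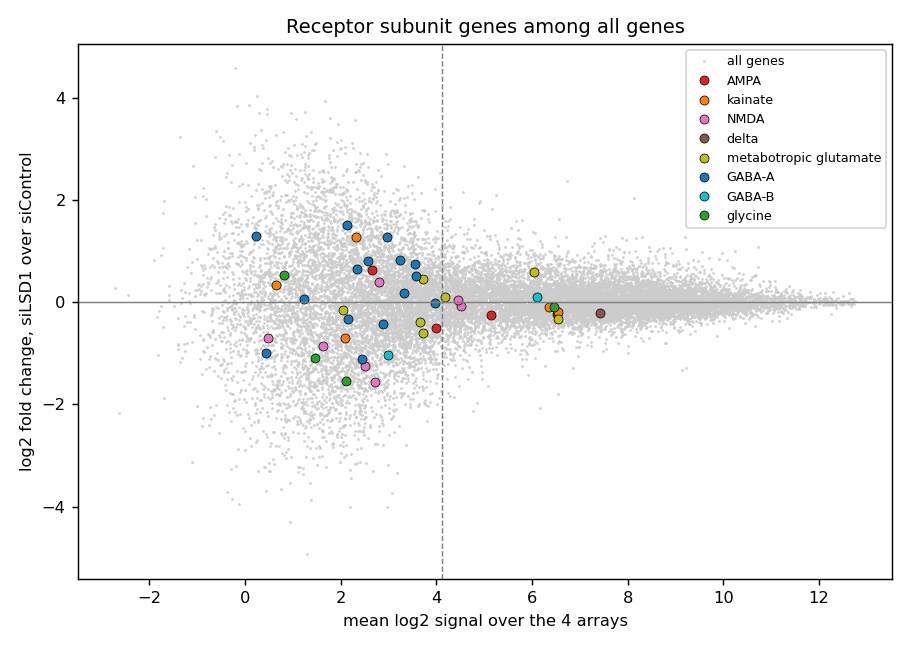
Mean log2 signal over the 4 arrays (horizontal axis) against log2 fold change, siLSD1 over siControl (vertical axis), for all genes in grey and the 45 receptor genes coloured by family, with the filter as a dashed line. Below the filter at 4.12 the cloud of all genes widens, and the 33 dim receptor genes lie inside it.

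Genes that make, move and anchor these transmitters and receptors gave no call over all genes tested either. Of 9 tested genes of transmitter synthesis and breakdown, 2 were higher and 7 lower (median log2 fold change -0.074), with 0 at an unadjusted p under 0.05 in limma. GLDC, which breaks down glycine, was at -0.36 (-0.199 without siLSD1 replicate 2), ABAT, the GABA transaminase, at 0.22 (0.095 without siLSD1 replicate 2 and 0.35 without siLSD1 replicate 1) and GOT2, the mitochondrial aspartate transaminase, at -0.199. Among 10 tested transporters 6 were higher and 4 lower (median 0.14), where 48.7% of all genes tested were lower, and 2 had an unadjusted p under 0.05 in limma, which 3.45% of all genes tested reached. SLC1A2, the glutamate transporter that is the main one of astrocytes, had signals of 5.42 and 5.50 in siLSD1 cells, against 3.69 and 4.80 in siControl cells. It was 2.32-fold higher (log2 fold change 1.21, 95% interval 0.199 to 2.22, limma adjusted p = 0.9996), with siControl replicate 1 below the filter level. The difference was 0.66 without that array and 1.76 without siControl replicate 2. SLC38A1, a glutamine transporter, was at 0.44 (0.20 without siControl replicate 1 and 0.67 without siControl replicate 2). SLC12A2, a cotransporter that loads cells with chloride, was at 0.37. In each, both siLSD1 arrays lay above both siControl arrays. With the mean of all probe sets, dim ones included, SLC38A1 was at 0.14 and SLC12A2 at 0.059, and SLC1A2 lay below the filter.

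Of 22 tested auxiliary and trafficking proteins 15 were higher and 7 lower (median 0.17), and 1, GABARAPL2, had an unadjusted p under 0.05, beside the same 3.45%. This relative of the GABA-A receptor-associated protein, which also acts in autophagy, was at 10.45 and 10.41 in siLSD1 cells, against 10.98 and 10.81 in siControl cells. The groups did not overlap and the 1.37-fold lower mean (log2 fold change -0.46, 95% interval -0.70 to -0.22) had a limma unadjusted p of 0.00226 and an adjusted p of 0.9996. GRIP1, a scaffold that binds AMPA receptors, was at 0.48 and NETO2, an auxiliary subunit of kainate receptors, at 0.18. Without siControl replicate 1 they were at 0.19 and 0.35, and without siControl replicate 2 at 0.76 and 0.0073. Of 16 tested postsynaptic scaffolds and kinases 10 were higher and 6 lower (median 0.094), with 0 at an unadjusted p under 0.05 in limma. LRRTM2, a synaptic adhesion protein, was at -0.68, with 4.92 and 5.23 in siLSD1 cells, against 5.76 and 5.75 in siControl cells, and its groups did not overlap. CAMK2D, a calcium/calmodulin-dependent kinase, was at 0.39 and DLGAP4, a scaffold of the PSD-95 complex, at 0.49, its groups overlapping. DLGAP4 was at 0.0021 without siControl replicate 1 and 0.98 without siControl replicate 2, and CAMK2D at 0.12 without siLSD1 replicate 2 and 0.65 without siLSD1 replicate 1. These 12 genes were those with the smallest p of their lists, so their separation follows in part from how they were picked.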

How the data were processed

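The authors' deposited values were 1 log2 signal per probe set and array. The scale, not given in the sources used here, was read from base-2 antilogs, which averaged 100.0 per array once 2% at either end was trimmed. The summary method was not given in the sources used here. The medians of the arrays differed by 0.27, so they were quantile normalized, which removes any difference in overall signal. Probe sets were named from the platform annotation of 2016, and the 45 receptor genes matched RefSeq (GRCh38.p14) by Entrez identifier with the same symbols. Each gene was represented by its brightest probe set by mean. Genes under the 40th percentile (4.12) were left out.

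Groups, taken from the sample titles, were tested with limma 3.58.1 in R 4.3.3 (lmFit, eBayes with a trend, two-sided, no replicate term, 8.23 degrees of freedom), Benjamini-Hochberg adjusted over 11865 genes at 0.05. Simulated data held 200 changed, independent genes, at 2-fold, 4-fold or 8-fold. There, 33.6% of 2-fold and 81.3% of 4-fold changes were recovered, and 4.82% of calls were false. The transfections came from 1 cell line, and the number of arrays limits precision. Members and lists were chosen with earlier results of these data known. The genes named were KDM1A, every receptor gene above the filter, dimmer ones at least 2-fold different with groups apart, and the 3 genes with the smallest p of each pathway list. Alternatives covered scaling, filter, probe sets, trend, replicate block and leaving out each array.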

Additional observations from a re-analysis of the deposited data

How the results depend on the processing

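In limma 0 receptor genes were called with every scaling, filter, probe set rule, variance model, replicate block or left-out array that was run, and their smallest adjusted p was 0.446, without siControl replicate 2. The directions of single receptor genes were less stable. Under the deposited scaling GRIN2D turned to -0.13 and GRM2 to -0.020. Under median centring GLRB was at 0.11, GRIK5 at 0.10, GRIK2 at 0.012, GRID1 at 0.0090 and GRIN2C at 0.0090, and the receptor median at 0.027, where the median of all genes tested was 0.18. With the mean of all probe sets, dim ones included, GRID1 was at 0.62, GRIA2 at 0.21, GLRB at 0.17, GRIK2 at 0.061, GABBR1 at -0.0043, GRM2 at -0.73 and DLGAP4 at -0.18. With a filter at the 60th percentile, which left fewer genes, the receptor median was -0.22. The cause of these turns was not tested.

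Leaving out 1 array, with the lone array of a group assumed to vary like the others, gave ranges of -0.31 to 0.12 for GLRB, -0.61 to 0.22 for GRIK2, -0.53 to 0.39 for GRIN2C, -0.18 to 0.25 for GRIN2D, -0.49 to 0.68 for GRM2 and -0.029 to 1.22 for GRM7. The median ran from -0.26 to -0.031 over the receptor genes above the filter, and from -0.37 to 0.080 over all 45. KDM1A ran from -1.39 to -1.25 and was called without siControl replicate 2 (limma adjusted p = 0.0475), where 83 genes were called, against 0 genes without siControl replicate 1. Across these 4 steps the calls over all genes ranged from 0 to 83. Medians of the pathway lists moved by over 1.5 times or turned as well, as in synthesis and breakdown, at 0.047 without siControl replicate 1 and -0.18 without siControl replicate 2. With the replicate number as a block 13 genes were called, KDM1A among them (-1.32, limma adjusted p = 0.0194), and 0 receptor genes. Whether same-numbered arrays were prepared together was not given in the sources used here. The deviations of same-numbered arrays correlated at 0.052 over 11865 genes, and this 1 value cannot settle that question. In simulated data with 2 arrays a group, 33.6% of 2-fold changes were recovered at the adjusted threshold. The simulated data also held 4-fold and 8-fold changes, which ease that threshold for the 2-fold ones. This share is therefore not the recovery to be had in the real data, where 0 genes passed with all 4 arrays.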
